A study of Mus musculus with 21 samples.

Results

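Uck2 and 7 further genes of pyrimidine synthesis and salvage were followed through 21 expression arrays of mouse heart. The 8 genes, of 13279 genes tested and 18193 gene symbols on the array, were selected from their measured values in these same arrays and from their place in the pathway. Uck2 was chosen for its TAC response and its difference between genotypes, and the others to stand beside it. Levels and differences of the 8 genes are therefore given as a description, without p-values. All probe sets that carry 1 of these symbols alone were taken, 21 of 45037 on the array, 6 of them for Uck2. Of the 21, 15 passed a filter that asked for a mean log2 level of at least 4.35 over all arrays, and each of the 8 genes had at least 1 that passed.

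The study set mice with reduced Gata4 against wild-type mice, each after transverse aortic constriction (TAC) or a sham operation. The 4 groups were G4D mice after TAC (n = 6), G4D mice after sham (n = 5), wild-type mice after TAC (n = 6) and wild-type mice after sham (n = 4). G4D mice are heterozygous for a gene-targeted Gata4 allele with a deletion. Gata4 encodes a DNA-binding zinc-finger protein that switches on genes of the heart muscle cell. In TAC a ligature sized on a 27 gauge needle was tied around the transverse aorta, which loads the left ventricle with pressure, and in the sham operation the aorta was not touched. Strain, sex, age and the time after the operation are not given in the labels used here. Total RNA was labelled with biotin, and the labels name cardiac myocytes as the source, without saying whether cells were isolated or tissue was taken. Nothing in the labels says that the samples of a group were separate animals, so that p-values and standard errors measure the spread between these samples.

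Across the series, array medians of the deposited log2 values ran from 4.31 to 5.33, and each array correlated with its group's other arrays, averaged, at r of at least 0.969. Defining markers of ventricular cardiomyocytes were high in every group, with list means of 12.34 in G4D TAC, 12.40 in G4D sham, 12.39 in wild-type TAC and 12.41 in wild-type sham. Markers of other cell types were present too. The 10 fibroblast markers averaged 10.01 in G4D TAC, 9.06 in G4D sham, 9.75 in wild-type TAC and 8.95 in wild-type sham, and the 9 macrophage markers 7.89, 7.19, 8.02 and 7.32 in the same order. Endothelial markers averaged 8.42, 8.28, 8.44 and 8.25 in that order, and the 3 lymphocyte markers that passed the filter 5.08, 5.29, 5.15 and 5.29, with Cd3e, Cd3g, Cd79b and Ms4a1 below it. G4D sham sample 5 stood apart by its atrial muscle markers, with a list mean of 10.93. Neither Gata4 probe set checks the genotype labels, since their place relative to the deleted part is not known: G4D over wild type was -0.25 ± 0.13 and -0.08 ± 0.31 (log2 ± SE) in sham and 0.17 ± 0.11 and 0.07 ± 0.27 after TAC. Precision is limited throughout by how few arrays a group has.

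Cells obtain the pyrimidine nucleotides UMP, CMP and their triphosphates along 2 routes. In the de novo route CAD, a protein with 3 enzyme activities, makes dihydroorotate, the mitochondrial enzyme DHODH oxidises it to orotate, and UMPS turns orotate into UMP. In the salvage route the uridine-cytidine kinases add a phosphate to uridine and cytidine taken up from the blood or released by RNA turnover, while uridine phosphorylase cleaves uridine and deoxycytidine kinase serves deoxycytidine. The products feed RNA, DNA, glycogen and glycan synthesis through UTP and phospholipid synthesis through CTP.

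Uck2 encodes a uridine-cytidine kinase, the more active of the pair UCK1 and UCK2 on its natural substrates. On the brightest probe sets it had the largest difference of the 8 genes for TAC in G4D and between genotypes in both operations. For TAC in wild type Dck had a larger difference, 0.94 against 0.61. On the brightest Uck2 probe set, 1439740_s_at, the log2 level was 8.97, 8.68, 8.95, 8.26, 8.52 and 8.94 in the G4D TAC samples. It was 6.01, 6.63, 6.08, 6.45 and 6.12 in the G4D sham samples. In wild-type TAC it was 7.02, 6.97, 7.71, 7.52, 8.36 and 8.08, and in wild-type sham 6.90, 6.91, 7.20 and 6.998. Every G4D TAC sample lay above every G4D sham sample, and every G4D sham sample lay below every wild-type sham sample. Wild-type TAC was the widest group: samples 1 and 2 lay within the wild-type sham range, and sample 5 lay above the lowest G4D TAC sample.

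Means of this Uck2 probe set, with the SD over the 6, 5, 6 and 4 samples of a group, were 8.72 ± 0.29 in G4D TAC, 6.26 ± 0.27 in G4D sham, 7.61 ± 0.56 in wild-type TAC and 7.001 ± 0.137 in wild-type sham. In the fit of all tested genes the log2 fold change of TAC over sham was 2.46 ± 0.21 (SE) in G4D, a 5.51-fold higher level after TAC, and 0.61 ± 0.22 in wild type, a 1.53-fold higher level. After TAC, Uck2 was higher in G4D than in wild type by 1.11 ± 0.20, or 2.16-fold. In sham it was lower in G4D than in wild type, at -0.74 ± 0.23, or 0.597 of the wild-type level. The difference between the TAC responses of the genotypes was 1.85 ± 0.31. By size, Uck2 stood 18th from the top of 13279 genes for TAC in G4D, 25th for G4D over wild type after TAC and 420th for TAC in wild type, and 49th from the bottom for G4D over wild type in sham.

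The genotype order of Uck2 was thus opposite in the 2 operations on this probe set, lower in G4D sham and higher in G4D TAC. How much of it lay in the sham samples depended on the probe set.

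The second brightest Uck2 probe set, 1448604_at, read 9.14, 8.73, 8.53, 8.29, 8.27 and 8.80 in G4D TAC and 6.29, 6.86, 6.38, 6.83 and 6.24 in G4D sham. It read 7.20, 7.62, 7.73, 7.50, 7.69 and 7.78 in wild-type TAC and 6.49, 6.51, 6.94 and 6.69 in wild-type sham. Here the wild-type TAC samples lay close together, all of them above the wild-type sham samples and below the G4D TAC samples. The sham groups overlapped. Single probe sets were fitted with all 45037 together, which changes the standard errors a little, and the TAC response there was 2.11 ± 0.17 in G4D and 0.93 ± 0.18 in wild type. G4D over wild type was 1.04 ± 0.16 after TAC and -0.14 ± 0.18 in sham. The difference between the TAC responses was 1.18 ± 0.24.

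**Figure D1:**
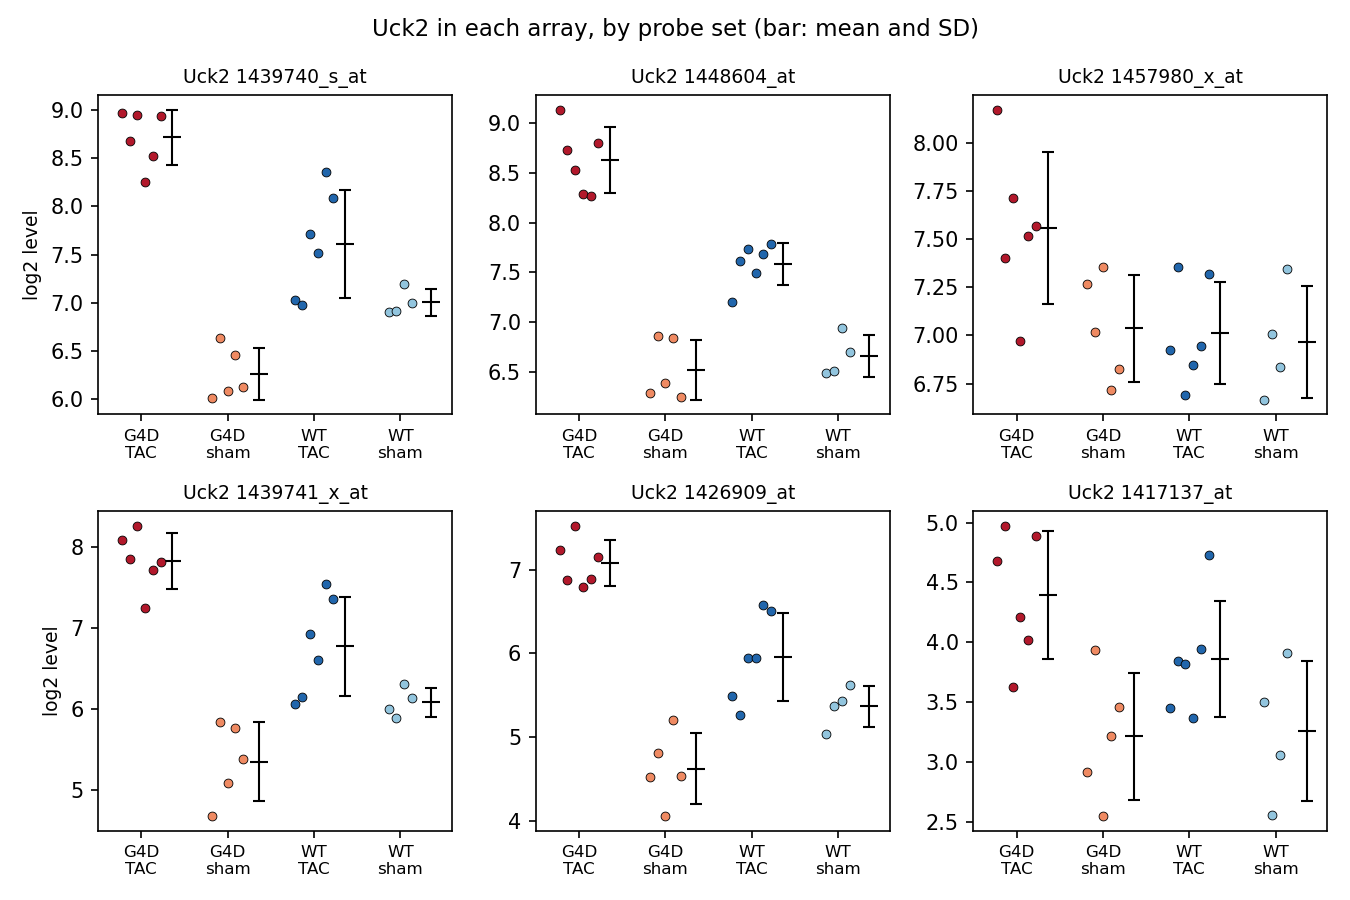
Log2 level of Uck2 in each array on each of its 6 probe sets, by group (points, 1 per array; bars, mean and SD). On 1439740_s_at the 6 G4D TAC arrays lie between 8.26 and 8.97 and the 5 G4D sham arrays between 6.01 and 6.63, while on 1457980_x_at the groups overlap; axes differ between panels and levels are not comparable between probe sets.

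The 4 other Uck2 probe sets fell into 3 kinds. Probe sets 1439741_x_at and 1426909_at gave values like those of 1439740_s_at: a TAC response of 2.49 ± 0.27 and 2.45 ± 0.23 in G4D, and of 0.69 ± 0.28 and 0.59 ± 0.25 in wild type. Their G4D over wild-type differences were 1.06 ± 0.25 and 1.12 ± 0.22 after TAC, and -0.73 ± 0.29 and -0.74 ± 0.26 in sham. The sham groups did not overlap on 1439741_x_at and overlapped on 1426909_at. Probe set 1417137_at, whose mean level lay below the filter, gave 1.18 ± 0.31 for TAC in G4D, 0.60 ± 0.33 for TAC in wild type, 0.54 ± 0.29 after TAC and -0.04 ± 0.34 in sham, with every pair of groups overlapping. Probe set 1457980_x_at moved least, with 0.52 ± 0.19 for TAC in G4D, 0.05 ± 0.20 for TAC in wild type, 0.55 ± 0.18 between genotypes after TAC and 0.07 ± 0.21 in sham, again with every pair of groups overlapping. An x in a probe set's name, as in 1457980_x_at and 1439741_x_at, marks probes that can also match other transcripts. Probe sequences were not at hand, so matches to other transcripts were not checked for any Uck2 probe set, 1439740_s_at included.

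All 6 probe sets thus read higher in G4D TAC than in each of the other groups by their means, and on 4 of them G4D TAC and G4D sham did not overlap. The order of means from G4D sham through wild-type sham and wild-type TAC to G4D TAC held on 5 of the 6. Neighbours in this order differed beyond their spread only in part: on 1439740_s_at the sham groups did not overlap, while wild-type sham overlapped wild-type TAC and wild-type TAC overlapped G4D TAC. On 1448604_at the sham groups overlapped and the 2 upper steps did not. Over the 21 arrays, 1439740_s_at correlated with 1439741_x_at at r = 0.989, with 1448604_at at r = 0.946 and with 1457980_x_at at r = 0.544. For deviations from the group means these correlations were 0.941, 0.673 and 0.12. These points share arrays and groups, so the correlations are a description. The platform annotation gives 1439740_s_at and 1439741_x_at the same source sequence. It also gives 1448604_at and the Uck2 probe set below the filter the same one. Members of such a pair need not be separate measurements, so the counts of 4 and 5 probe sets are not counts of independent ones.

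Leaving out 1 array at a time, the Uck2 difference for TAC over sham in G4D stayed between 2.401 and 2.557, and G4D over wild type after TAC between 0.98 and 1.26. In wild type the TAC response ranged between 0.46 (without wild-type TAC sample 5) and 0.74 (without wild-type TAC sample 2). In sham, G4D over wild type ranged between -0.84 and -0.68. Without G4D sham sample 5, which carried the high atrial markers, Uck2 was at 2.43 for TAC in G4D and -0.71 in sham, Upp1 at 0.98 and -0.56, and Dck at 1.34 and -0.53.

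Uck1, the second uridine-cytidine kinase, showed no such pattern. Its only probe set, 1424399_at, averaged 6.54 ± 0.15 in G4D TAC, 6.66 ± 0.14 in G4D sham, 6.56 ± 0.17 in wild-type TAC and 6.72 ± 0.27 in wild-type sham (SD, with n as above). All 4 groups overlapped, and the TAC response was -0.12 ± 0.11 in G4D and -0.16 ± 0.12 in wild type. Uckl1 encodes a protein related to these kinases. Its level ranged between 7.45 and 7.84 in G4D TAC (median 7.51), between 7.49 and 7.64 in G4D sham, between 7.28 and 7.60 in wild-type TAC (median 7.48) and between 7.45 and 7.74 in wild-type sham. Its TAC response was 0.01 ± 0.09 in G4D and -0.15 ± 0.09 in wild type. Among the 3 kinase genes of the pathway's uridine step, Uck2 alone had groups that did not overlap.

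Upp1 encodes uridine phosphorylase, which splits uridine into uracil and a ribose phosphate. Its probe set, 1448562_at, read 6.24, 6.44, 5.97, 6.14, 6.10 and 6.32 in G4D TAC and 4.72, 5.29, 5.31, 5.56 and 5.75 in G4D sham. It read 6.17, 5.96, 5.97, 6.21, 6.23 and 6.28 in wild-type TAC and 6.11, 5.30, 6.06 and 5.63 in wild-type sham. The G4D groups did not overlap, the wild-type groups did, and after TAC the genotypes covered nearly the same range. The TAC response was 0.88 ± 0.16 in G4D (1.83-fold) and 0.36 ± 0.17 in wild type (1.28-fold). G4D over wild type was 0.07 ± 0.15 after TAC and -0.45 ± 0.18 in sham. The response was larger in G4D by 0.52 ± 0.23. Without G4D sham sample 1, the lowest, the Upp1 response in G4D was 0.72, its difference from wild type in sham -0.30 and the difference between the responses 0.36. Without wild-type sham sample 2, the lowest of its group, the response in wild type was 0.20.

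Dck encodes deoxycytidine kinase, which phosphorylates deoxycytidine for DNA synthesis. Its brightest probe set, 1449176_a_at, read 4.57, 5.11, 4.95, 4.0, 5.19 and 5.72 in G4D TAC and 3.49, 3.09, 3.38, 4.36 and 3.84 in G4D sham. It read 5.24, 4.45, 4.80, 5.39, 5.62 and 4.78 in wild-type TAC and 4.33, 3.63, 4.31 and 4.16 in wild-type sham. The wild-type groups did not overlap, and the G4D groups did, through G4D TAC sample 4 and G4D sham sample 4. The sham means, 3.63 in G4D and 4.11 in wild type, lay below the filter level of 4.35, so the size of the response is imprecise. The TAC response was 1.29 ± 0.27 in G4D and 0.94 ± 0.29 in wild type, with G4D over wild type at -0.12 ± 0.26 after TAC and -0.48 ± 0.30 in sham. Probe set 1439012_a_at, below the filter, gave 1.09 ± 0.32 in G4D and 1.07 ± 0.34 in wild type, and 1428838_a_at, the dimmest, 0.85 ± 0.36 and 1.68 ± 0.38. Dck thus read higher after TAC in both genotypes on all 3 probe sets, and which genotype had the larger response differed between them. In sham, G4D over wild type was -0.42 ± 0.35 on 1439012_a_at and 0.98 ± 0.40 on 1428838_a_at, so its direction differed too.

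**Figure D2:**
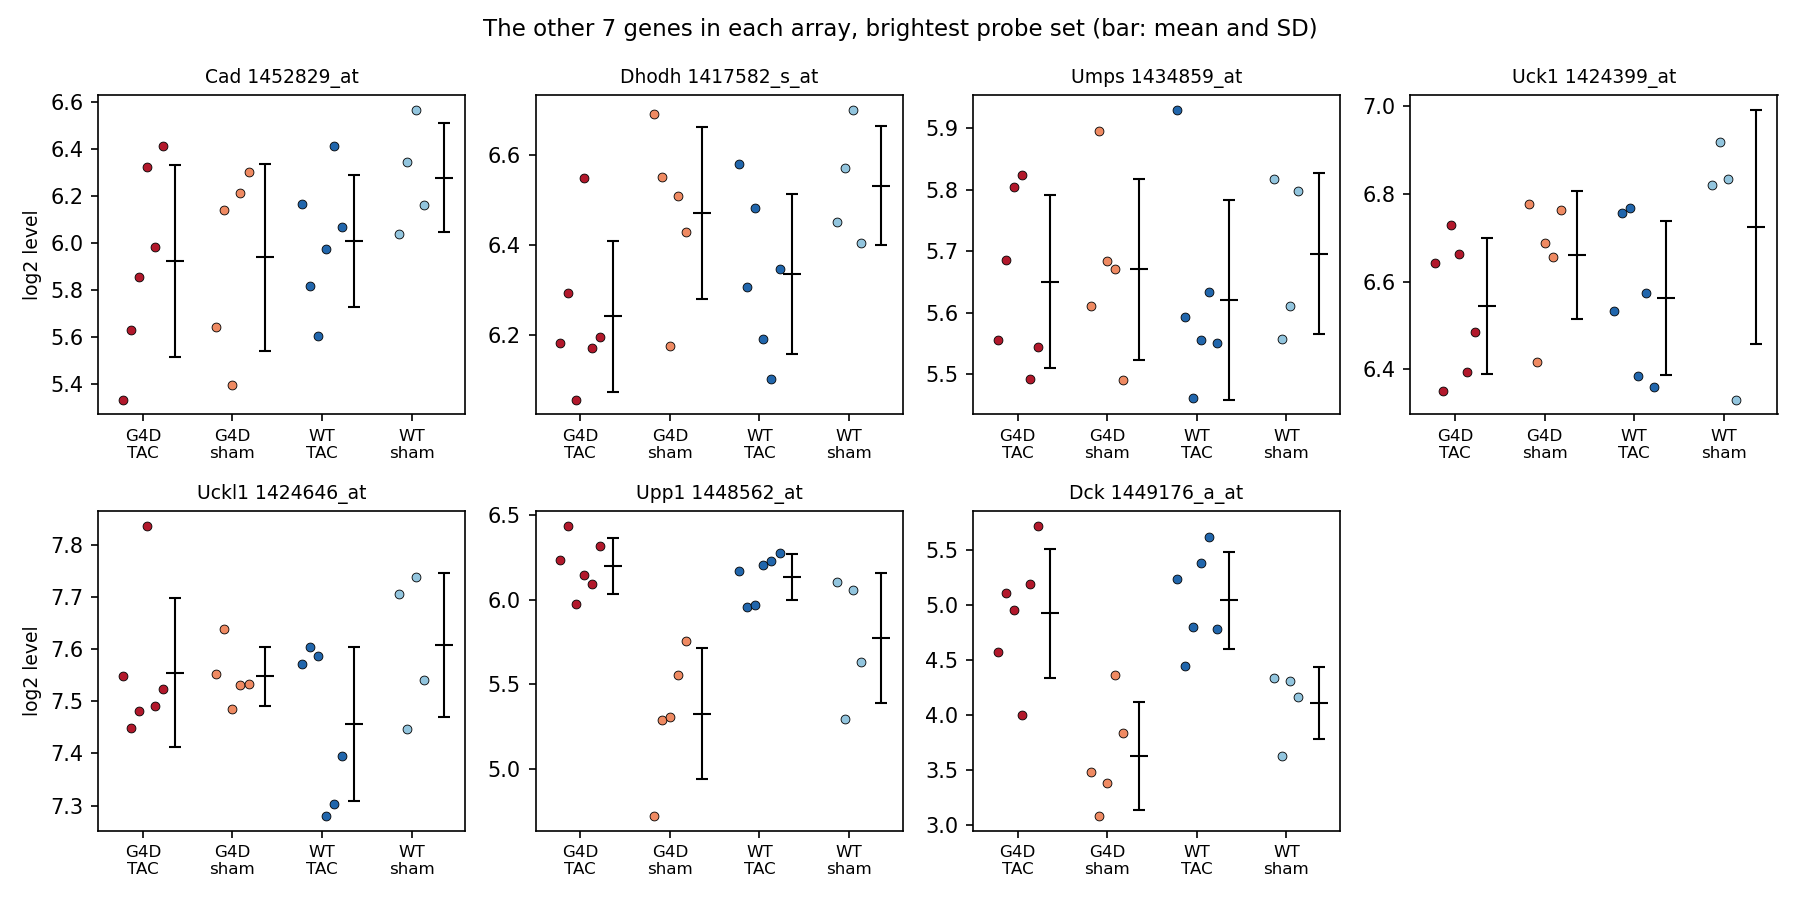
Log2 level of the other 7 genes in each array on the brightest probe set of each, by group (points, 1 per array; bars, mean and SD). Upp1 lies between 5.97 and 6.44 in G4D TAC against 4.72 to 5.75 in G4D sham, Dck is higher after TAC in both genotypes, and the groups of Cad, Dhodh, Umps, Uck1 and Uckl1 overlap; axes differ between panels.

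The sequences upstream of Uck2, Upp1 and Dck, the members with higher levels after TAC in G4D, are shown to set their promoters side by side. They are RefSeq windows of build GRCm38.p6, from 250 bases before to 50 bases after the outermost annotated start site, 5′ to 3′ on the gene's strand. Capitals mark matches, on either strand, to 5 motifs: the E-box CACGTG, which Myc and its relatives bind; CCAAT; the GC box GGGCGG; the GATA core GATAA; and the AP-1 site TGANTCA. Adjoining or overlapping GC boxes run together in the capitals. The Uck2 window is at chr1:167285078-167285377 on the minus strand, the Upp1 window at chr11:9117758-9118057 on the plus strand and the Dck window at chr5:88764763-88765062 on the plus strand.
Uck2: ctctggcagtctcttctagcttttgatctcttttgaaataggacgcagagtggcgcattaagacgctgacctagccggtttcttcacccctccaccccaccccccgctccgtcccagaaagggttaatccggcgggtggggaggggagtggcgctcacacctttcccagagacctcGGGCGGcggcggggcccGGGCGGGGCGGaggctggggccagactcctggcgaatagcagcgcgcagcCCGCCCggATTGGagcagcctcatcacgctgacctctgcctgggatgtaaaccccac
Upp1: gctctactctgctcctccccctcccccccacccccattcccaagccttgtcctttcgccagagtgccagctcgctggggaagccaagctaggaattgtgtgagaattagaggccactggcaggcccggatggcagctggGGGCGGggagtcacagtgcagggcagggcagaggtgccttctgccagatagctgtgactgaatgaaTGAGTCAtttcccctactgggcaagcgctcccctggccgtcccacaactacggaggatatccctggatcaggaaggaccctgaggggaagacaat
Dck: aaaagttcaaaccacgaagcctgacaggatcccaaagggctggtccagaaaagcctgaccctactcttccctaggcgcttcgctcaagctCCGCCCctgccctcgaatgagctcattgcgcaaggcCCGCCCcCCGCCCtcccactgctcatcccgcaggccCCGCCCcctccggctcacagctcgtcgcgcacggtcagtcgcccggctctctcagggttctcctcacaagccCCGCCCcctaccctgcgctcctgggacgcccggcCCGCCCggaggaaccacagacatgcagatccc
The Uck2 window held 4 GC boxes and 1 CCAAT match, the Upp1 window 1 GC box and 1 AP-1 match, and the Dck window 6 GC boxes. None of the 3 held the letters of the E-box or the GATA core. Of 27025 such windows, 35.9% held a GC box, 38% CCAAT, 7.92% the AP-1 site, 7.24% the E-box and 25.8% the GATA core. Among the other members, Cad had 2 GC boxes, Uckl1 1, and Umps 1 with 1 GATA core, while Uck1 had no match; 7 of the 8 genes had a window. A match is a run of letters and shows no binding.

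Every probe set of the 3 genes of the de novo route had overlapping groups in every comparison. Cad, which starts the route, ranged on 1452829_at between 5.33 and 6.41 in G4D TAC (median 5.92), between 5.40 and 6.30 in G4D sham, between 5.61 and 6.41 in wild-type TAC (median 6.02) and between 6.04 and 6.57 in wild-type sham. Its TAC response was -0.02 ± 0.20 in G4D and -0.27 ± 0.21 in wild type. Of its other probe sets, 1452830_s_at gave -0.07 ± 0.21 in G4D and -0.22 ± 0.23 in wild type, and 1440857_at, below the filter, -0.45 ± 0.43 and 0.47 ± 0.46. Dhodh on 1417582_s_at ranged between 6.06 and 6.55 in G4D TAC (median 6.19), between 6.18 and 6.69 in G4D sham, between 6.10 and 6.58 in wild-type TAC (median 6.33) and between 6.40 and 6.70 in wild-type sham. Its TAC response was -0.23 ± 0.11 in G4D and -0.20 ± 0.11 in wild type, and its other probe set, 1417581_at, gave 0.15 ± 0.21 and -0.05 ± 0.22. Dhodh thus had a small negative difference in both genotypes on 1 of 2 probe sets, with overlapping groups on both.

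Umps, which carries out the last steps to UMP, read 5.65 ± 0.14 in G4D TAC, 5.67 ± 0.15 in G4D sham, 5.62 ± 0.16 in wild-type TAC and 5.70 ± 0.13 in wild-type sham (SD) on its brightest probe set, 1434859_at. The TAC response there was -0.02 ± 0.09 in G4D and -0.08 ± 0.10 in wild type. On 1455832_a_at it was 0.45 ± 0.14 in G4D and 0.23 ± 0.15 in wild type, with overlapping groups. The other pair, 1431652_at and 1451445_at, lay below the filter. The Umps probe sets therefore did not give the same response in G4D, and no Umps probe set had groups without overlap.

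**Figure D3:**
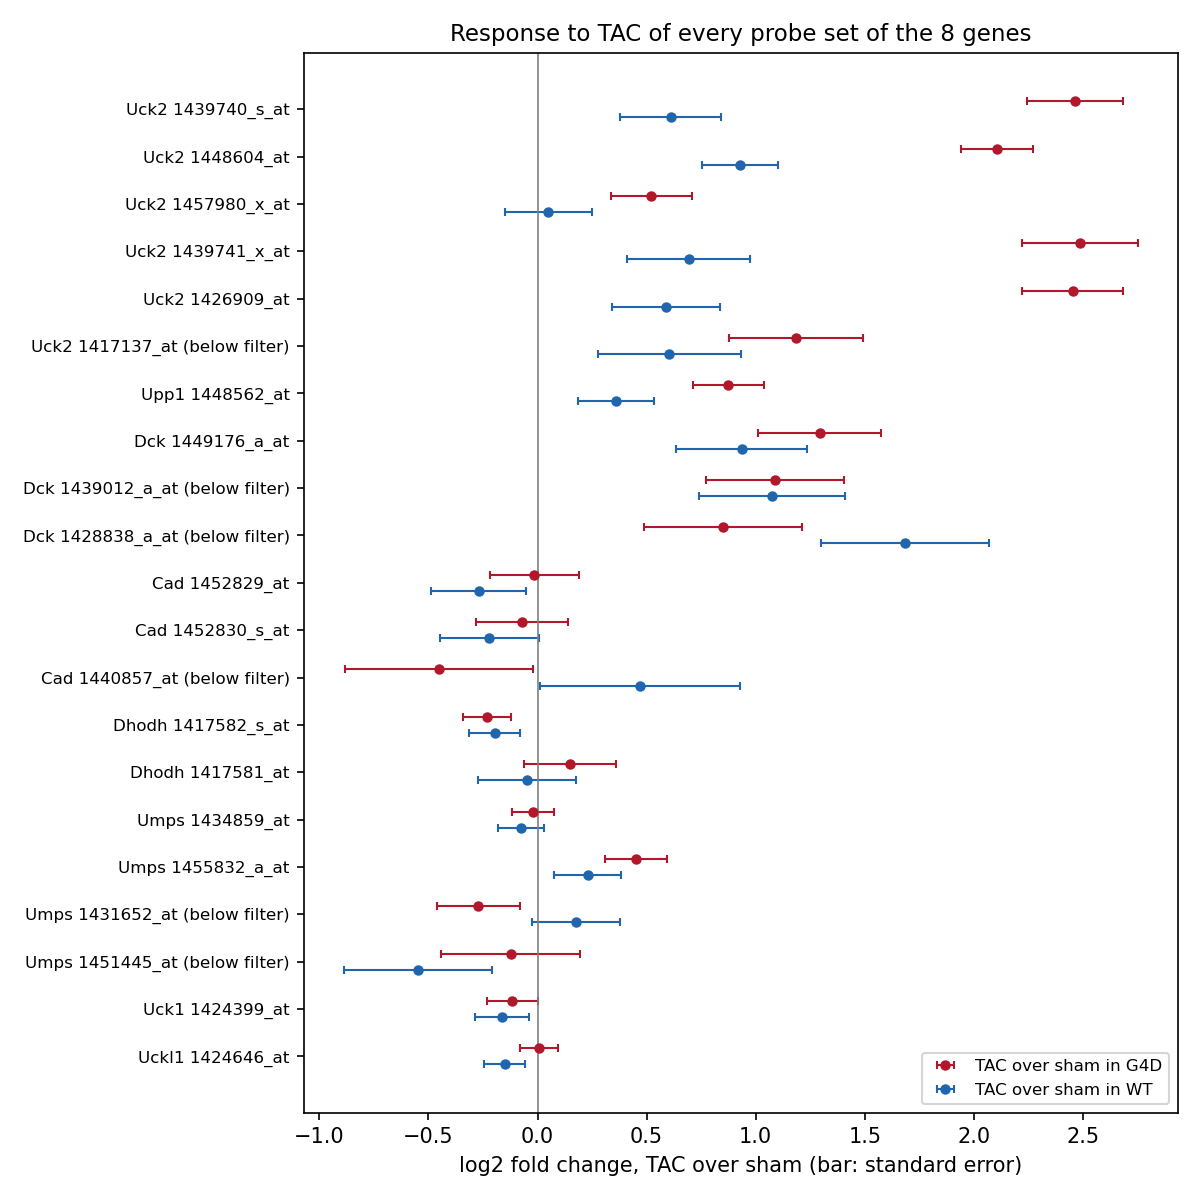
Log2 fold change of TAC over sham for each of the 21 probe sets of the 8 genes, in G4D (red, upper of each pair) and in wild type (blue, lower), with standard errors from the fit of all probe sets. Responses of 2 or more appear on 4 Uck2 probe sets in G4D, and those of Cad, Dhodh, Umps, Uck1 and Uckl1 lie between -0.27 and 0.23 on the probe sets that passed the filter, except Umps 1455832_a_at at 0.45 in G4D.

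Counted in the fit of all tested genes, with a limma adjusted p under 0.05 as the call, 3 of the 8 genes were called higher after TAC in G4D (Uck2, Dck and Upp1) and 0 lower, where 13.2% of all tested genes were called higher and 9.32% lower. In wild type 0 of the 8 were called after TAC (3 at an unadjusted p under 0.05), where the calls over all genes were 5.19% higher and 2.16% lower. After TAC, 1 of the 8, Uck2, was called higher in G4D than in wild type, where 2.1% were called higher and 1.26% lower. In sham 0 were called (2 at an unadjusted p under 0.05), where 0.0301% were called higher and 0.0226% lower in G4D. For the difference between the TAC responses, 1 of the 8, Uck2, was among the 2 genes called, 0.0151% of those tested, with 0% called in the other direction. The other was Synpo2, at 1.23 ± 0.14, a gene named here after its values were seen. The call of Uck2 in this last comparison ended when any 1 of 14 of the 21 arrays was left out, and stayed without wild-type TAC sample 2, 3, 5 or 6, G4D sham sample 2 or G4D TAC sample 2 or 4. These contrasts were used in choosing the genes, so that nothing is read from these counts. Median log2 fold changes of the 8 were -0.005 for TAC in G4D, -0.113 for TAC in wild type, 0.006 after TAC and -0.202 in sham, against -0.024, -0.023, -0.005 and -0.008 for all tested genes.

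By overlap, 5 of the 21 probe sets had G4D TAC wholly above G4D sham and 0 wholly below, 4 of the 5 being of Uck2 and the fifth Upp1. Of all probe sets 3.71% had G4D TAC wholly above and 1.94% wholly below. In wild type, 3 of the 21 had TAC wholly above sham (Uck2 1448604_at, Dck 1449176_a_at and 1439012_a_at) and 0 wholly below, against 3.66% of all above and 2.08% below. After TAC, G4D lay wholly above wild type on 2 of the 21, both of Uck2, and wholly below on 0, against 0.924% of all above and 0.402% below. In sham G4D lay wholly below wild type on 3 of the 21, 2 of Uck2 and 1 of Dck, and wholly above on 0, against 1.04% of all below and 0.895% above. The 2 Uck2 probe sets lower in sham share a source sequence. Nothing is read from these counts either.

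Beyond the 8 genes, 42 genes of pyrimidine metabolism were listed, of which 37 were on the array and 32 were tested. After TAC in G4D 9 of the 32 rose and 1 fell (limma, adjusted over all tested genes), where 13.2% of all tested genes rose and 9.32% fell. In wild type 5 rose and 0 fell, where 5.19% of all rose and 2.16% fell. The counts of the lists that follow stand against the same shares, and a count near them is no result about a list. Between genotypes after TAC 2 were lower in G4D and 0 higher, against 1.26% and 2.1% of all. Each call was also tried in the values as deposited, with median centring, with no filter, at the 60th percentile, with the mean of a gene's probe sets, with only the 2 groups compared and with the replicate number as a block. At the 60th percentile only the genes that still passed the filter could be tried. In sham 0 were called (1 at an unadjusted p under 0.05), and for the difference between the TAC responses 0 (4 at an unadjusted p under 0.05). The medians of the 32 were 0.002 for TAC in G4D and 0.074 for TAC in wild type, against -0.024 and -0.023 for all genes, so the changed genes were a minority. The comparisons share control samples, so their values are given side by side. In sham, and for the difference between the TAC responses, limma called no gene of any of the 8 gene lists used here, where 0 to 1 and 0 to 3 genes of a list had an unadjusted p under 0.05.

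Among the kinases that turn UMP and CMP into triphosphates, and the CTP synthases, 3 of 8 rose after TAC in G4D. Nme1, a nucleoside diphosphate kinase, averaged 9.95 ± 0.38 in G4D TAC and 9.14 ± 0.22 in G4D sham (SD, n = 6 and 5), a rise of 0.81 ± 0.15 (limma adjusted p = 0.000393). Ctps1, which makes CTP from UTP, averaged 8.53 ± 0.18 in G4D TAC and 7.84 ± 0.15 in G4D sham, a rise of 0.68 ± 0.11 (limma adjusted p = 8.36e-05). Cmpk1, the UMP and CMP kinase, rose by 0.27 ± 0.08 (limma adjusted p = 0.0219), a call that ended without G4D sham sample 2 and with the block. In wild type Ctps1 was at 0.34 ± 0.11 (limma adjusted p = 0.0675), and the only gene of this group called was Nme7, at 0.41 ± 0.12 (limma adjusted p = 0.0415), whose call ended without any 1 of 6 of the 10 arrays (wild-type sham 1, 2 and 4 and wild-type TAC 1, 3 and 4). The Nme7 call also ended in 5 of 6 alternatives, all but the mean of probe sets. Cmpk2, a mitochondrial UMP and CMP kinase known as an interferon-induced gene, averaged 5.10 ± 0.43 in G4D TAC and 5.80 ± 0.23 in wild-type TAC, lower by -0.70 ± 0.17 in G4D (limma adjusted p = 0.0234). That call ended without G4D TAC sample 2 or wild-type TAC sample 5, in the values as deposited, with only the 2 groups compared and with the block. Between the TAC responses Cmpk2 differed by -0.81 ± 0.26 (limma adjusted p = 0.329).

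Of the 12 tested genes that supply deoxypyrimidines and thymidylate, the same number, 4, rose after TAC in each genotype. Rrm2, the regulated subunit of ribonucleotide reductase, averaged 6.43 ± 0.68 in G4D TAC and 4.66 ± 0.19 in G4D sham, and 6.56 ± 0.58 in wild-type TAC and 4.59 ± 0.10 in wild-type sham (SD). Its rise was 1.77 ± 0.28 in G4D (limma adjusted p = 0.000102) and 1.97 ± 0.29 in wild type (limma adjusted p = 0.000329). Tk1, the thymidine kinase of dividing cells, rose by 0.86 ± 0.16 in G4D (limma adjusted p = 0.000464) and by 1.07 ± 0.17 in wild type (limma adjusted p = 0.00052). Rrm1, the large reductase subunit, rose by 0.54 ± 0.16 in G4D and 0.89 ± 0.17 in wild type (limma adjusted p = 0.0206 and 0.00324). Mthfd2, a mitochondrial folate enzyme, rose by 0.58 ± 0.15 in G4D and 0.64 ± 0.17 in wild type (limma adjusted p = 0.0101 and 0.0199). The G4D call of Rrm1 ended without G4D sham sample 3 or G4D TAC sample 2 or 6, with only the 2 groups compared and with the block, and its wild-type call in the values as deposited. The wild-type call of Mthfd2 ended without wild-type sham sample 1 or 4, in the values as deposited and with the block. After TAC 0 of the 12 differed between genotypes (2 at an unadjusted p under 0.05), with Tk1 at -0.34 ± 0.15 (limma adjusted p = 0.316). Rrm2 differed by -0.13 ± 0.26 between genotypes after TAC, where Uck2 differed by 1.11 ± 0.20.

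Of the 7 tested breakdown genes and nucleotidases, which remove phosphate from nucleotides, 2 rose and 1 fell after TAC in G4D. Nt5c rose by 0.64 ± 0.17 (limma adjusted p = 0.0115), and the mitochondrial Nt5m by 0.31 ± 0.09 (limma adjusted p = 0.0186), a call that ended without G4D sham sample 5. Nt5c3, a nucleotidase that prefers pyrimidine monophosphates, averaged 8.02 ± 0.19 in G4D TAC and 8.45 ± 0.24 in G4D sham, a difference of -0.43 ± 0.12 (limma adjusted p = 0.0126), whose call ended in the values as deposited and with median centring. After TAC Nt5c3 was lower in G4D than in wild type by -0.42 ± 0.11 (limma adjusted p = 0.0451), a call that ended without any 1 of 9 of the 12 arrays and in 5 of 7 alternatives, and stayed without wild-type TAC sample 4 or 5 or G4D TAC sample 2. In wild type none of the 7 was called after TAC (3 at an unadjusted p under 0.05), with Nt5c at 0.51 ± 0.19 (limma adjusted p = 0.108). None of the 5 tested nucleoside transporters was called in any comparison. Slc29a3, an intracellular transporter, was at 0.31 ± 0.14 for TAC in G4D (limma adjusted p = 0.119) and at 0.47 ± 0.15 in wild type (limma adjusted p = 0.0608), each the 1 transporter with an unadjusted p under 0.05 there; in the other 3 comparisons 0 transporters passed even that.

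**Figure D4:**
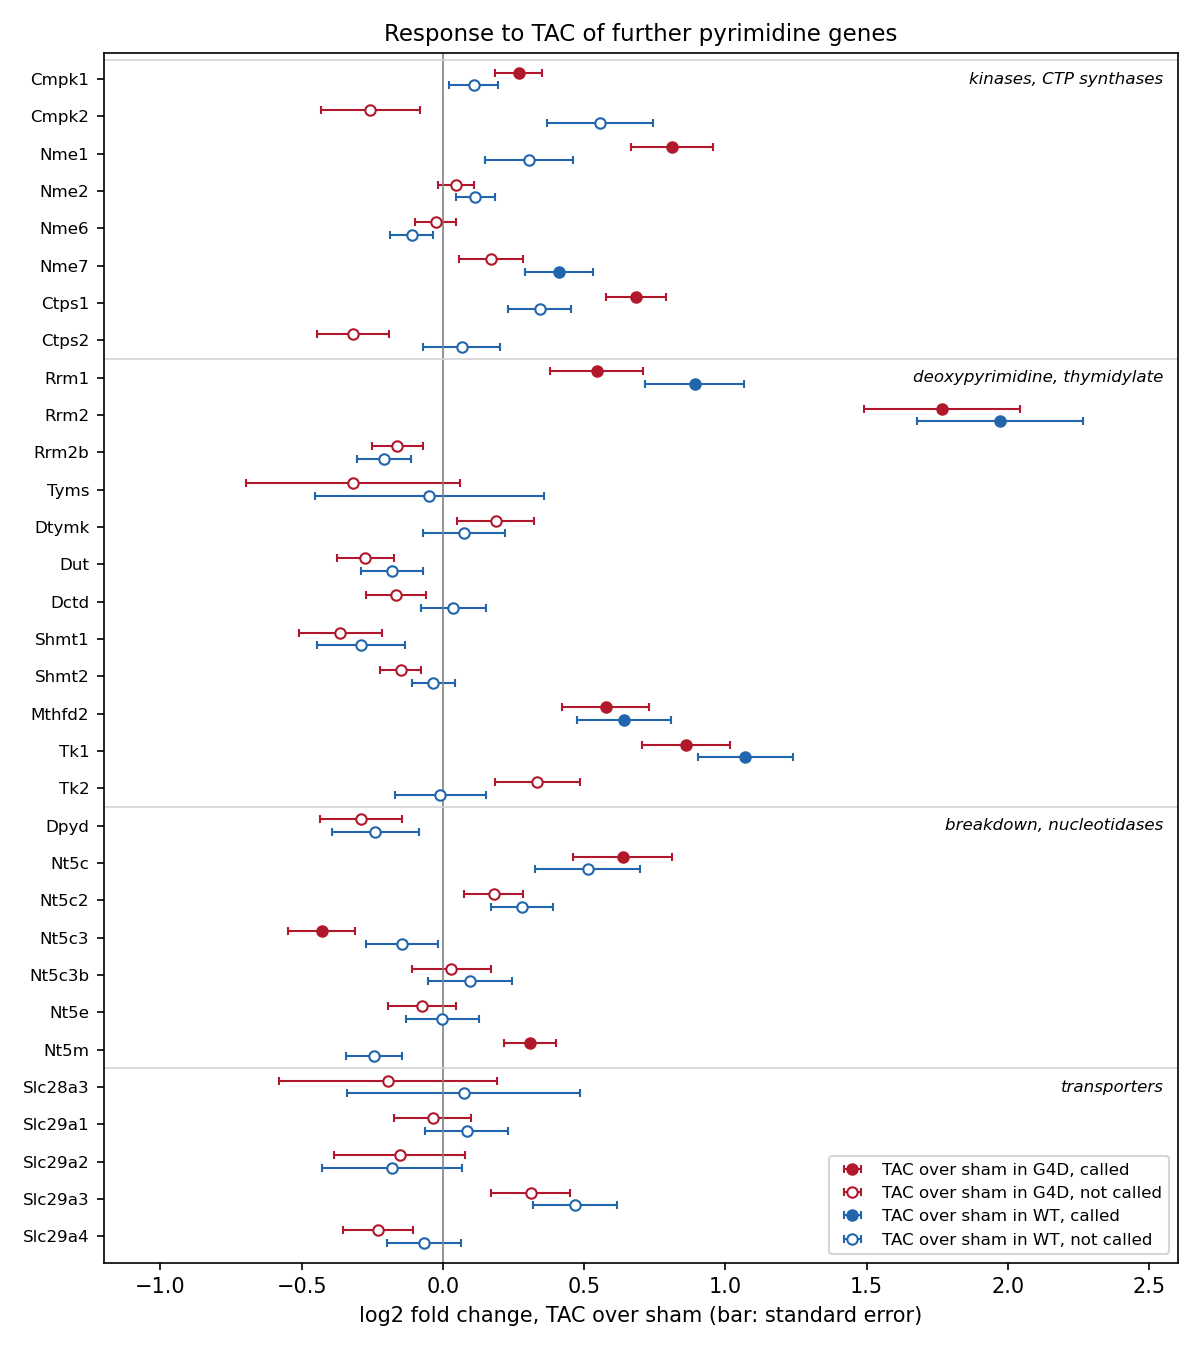
Log2 fold change of TAC over sham for the 32 tested further genes of pyrimidine metabolism, by group of function, in G4D (red) and in wild type (blue), with standard errors; filled points were called by limma at an adjusted p under 0.05. Rrm2 shows the largest rise in both genotypes, 1.77 in G4D and 1.97 in wild type, and no transporter was called.

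Genes that use UTP and CTP were examined next, 16 of them tested. After TAC in G4D 3 rose and 2 fell. Those that rose were Ugdh, which makes UDP-glucuronate, at 0.57 ± 0.17 (limma adjusted p = 0.0201), Gfpt1, which feeds UDP-GlcNAc synthesis, at 0.44 ± 0.10 (limma adjusted p = 0.00405), and Ugp2, which makes UDP-glucose, at 0.42 ± 0.14 (limma adjusted p = 0.0335). Other genes of UDP-sugars on the list, named here after their values were seen, were not called: Galt, Uap1, Uap1l1, Uxs1 and Gfpt2 lay between -0.18 and 0.04. The call of Ugdh ended without G4D sham sample 1 or 2, and that of Ugp2 without G4D TAC sample 1, 2 or 5 or G4D sham sample 2, 3 or 5, with no filter, with only the 2 groups compared and with the block. Ugp2 averaged 11.45 ± 0.27 in G4D TAC and 10.82 ± 0.20 in wild-type TAC (SD, n = 6 each), higher in G4D by 0.63 ± 0.13 (limma adjusted p = 0.0098), a call that held without any 1 array and ended in the values as deposited. Pcyt2 and Cds2, of phospholipid synthesis, fell by 0.46 and 0.26 in G4D and by 0.52 and 0.30 in wild type, except that Cds2 in G4D stood at 0.18 in the values as deposited. In G4D the adjusted limma p was 0.0207 for Pcyt2 and 0.0274 for Cds2, and in wild type 0.0322 and 0.036. The Pcyt2 call in G4D ended without G4D TAC sample 3 or G4D sham sample 2, and that of Cds2 without G4D TAC sample 2, 5 or 6 or G4D sham sample 1 or 3. In wild type both calls stayed only without wild-type TAC sample 1, 2 or 3. All 4 calls ended in the values as deposited, with median centring and with the block. The Cds2 calls also ended with the mean of probe sets, its call in G4D with only the 2 groups compared, and the wild-type call of Pcyt2 with no filter.

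Purine synthesis and salvage, the parallel pathway, had 15 tested genes, of which 2 rose and 2 fell after TAC in G4D, near the shares of all tested genes, and 2 rose and 0 fell in wild type. Adss2, an adenylosuccinate synthetase, rose by 0.48 ± 0.13 in G4D and 0.52 ± 0.14 in wild type (limma adjusted p = 0.0124 and 0.0275), and Hprt, the salvage enzyme of guanine and hypoxanthine, by 0.30 ± 0.08 in G4D and 0.30 ± 0.09 in wild type (limma adjusted p = 0.0115 and 0.0415). The wild-type call of Adss2 ended without wild-type TAC sample 4 or wild-type sham sample 1, 3 or 4, and that of Hprt stayed only without wild-type TAC sample 2 or wild-type sham sample 4. Prps2, which makes the ribose donor of both pathways, fell by 0.57 in G4D (limma adjusted p = 0.00714), and Adk, adenosine kinase, by 0.32 (limma adjusted p = 0.0277), though Adk stood at 0.073 in the values as deposited. The call of Adk ended without G4D sham sample 2 or 4. Both wild-type calls and those of Prps2 and Adk ended in the values as deposited and with median centring. The block ended all of these but Prps2, no filter that of Hprt, and only the 2 groups compared that of Adk. Ribosomal RNA synthesis is a large consumer of nucleotides. Of 16 genes of that process, Myc included, 3 rose in G4D: Nop58 at 0.62 ± 0.17 (limma adjusted p = 0.0108), Pes1 at 0.33 ± 0.12 (limma adjusted p = 0.0438) and Fbl at 0.30 ± 0.09 (limma adjusted p = 0.0216). In wild type 1 rose, Npm1 at 0.31 ± 0.08 (limma adjusted p = 0.0276). The call of Pes1 ended without any 1 of 8 of the 11 arrays and stayed without G4D sham sample 2 or 4 or G4D TAC sample 4. It also ended with median centring, with no filter, with only the 2 groups compared and with the block. The call of Fbl ended without G4D sham sample 2 or 5 and with only the 2 groups compared. That of Npm1 ended in 5 of 7 alternatives and without wild-type TAC sample 1, 4 or 6 or wild-type sham sample 1, 2 or 3. Neither list had a gene called between genotypes after TAC (2 and 1 at an unadjusted p under 0.05).

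Genes of cell division rose in both genotypes: 15 of the 15 tested after TAC in G4D, with a median of 1.25, and 15 of the 15 in wild type, with a median of 1.23. Of 20 genes listed, 19 were on the array and 15 were tested. The filter took the mean over all arrays, so genes high only after TAC could pass through their TAC samples, which favours genes that rose. Cdk1, the kinase of mitotic entry, rose by 2.90 ± 0.28 in G4D (limma adjusted p = 6.63e-07) and 3.23 ± 0.30 in wild type (limma adjusted p = 4.83e-06), from sham means below the filter level, so that these sizes are imprecise. Next in size were Top2a at 2.67, Mki67 at 2.37 and Birc5 at 2.215 in G4D, and at 2.965, 2.86 and 2.33 in wild type. In wild type 7 of the 15 calls ended in the values as deposited, and those of Bub1b and Mcm5 also with the block. The wild-type call of Mcm5 ended as well without wild-type TAC sample 4 or wild-type sham sample 1 or 4, and the G4D call of Pcna with only the 2 groups compared and with the block. The call of Bub1b, a mitotic checkpoint kinase named here after its values were seen, ended without any 1 of 8 of the 11 arrays in G4D and any 1 of 6 of the 10 in wild type, and in 5 of 6 alternatives in G4D. Between genotypes after TAC 0 of the 15 were called, and 0 had an unadjusted p under 0.05. The mean level of the 15 was 6.75 ± 0.50 in G4D TAC, 5.31 ± 0.20 in G4D sham, 6.83 ± 0.36 in wild-type TAC and 5.22 ± 0.11 in wild-type sham (SD; n = 6, 5, 6 and 4). Set beside the same arrays' Uck2, the G4D TAC sample with the highest Uck2 level on 1439740_s_at, sample 1 at 8.97, had a cell division mean of 6.20, the second lowest of its group, and G4D TAC sample 3, at 8.95, had the highest, 7.40. Among the wild-type TAC samples the highest Uck2 level, 8.36 in sample 5, lay with a mean of 6.93, and the second lowest, 7.02 in sample 1, with 7.08. The lowest Uck2 level of each TAC group lay with the lowest cell division mean of that group. These were G4D TAC sample 4, at 8.256 with 6.126, and wild-type TAC sample 2, at 6.97 with 6.365.

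**Figure D5:**
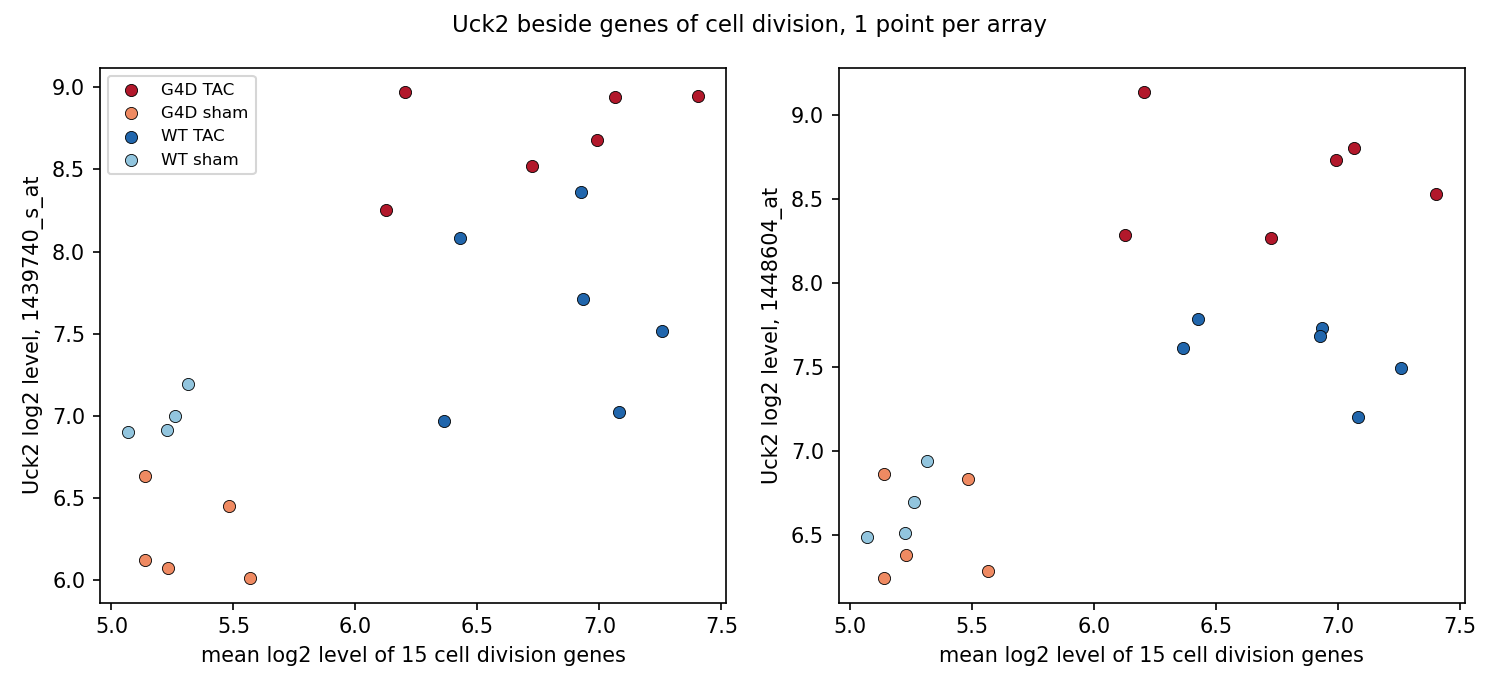
Log2 level of Uck2 on 1439740_s_at (left) and 1448604_at (right) against the mean log2 level of 15 cell division genes, 1 point per array, by group. Both TAC groups lie at cell division means of 6.13 to 7.40, above all sham arrays, and on 1448604_at the G4D TAC arrays lie above the wild-type TAC arrays over the same range. On 1439740_s_at the TAC groups overlap, with wild-type TAC sample 5 at 8.36 above G4D TAC sample 4 at 8.26.

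Some other measures also differed between TAC and sham. Of 10 fibroblast markers 5 rose and 1 fell after TAC in G4D and 5 rose in wild type, and of 9 macrophage markers 9 and 8 rose; between genotypes after TAC none of either list was called. Of 7 smooth muscle and pericyte markers 1 rose after TAC in each genotype, and 2 were higher in G4D than in wild type after TAC, with a list mean of 8.42 ± 0.20 in G4D TAC and 8.22 ± 0.13 in wild-type TAC (SD, n = 6 each). Of 10 endothelial markers 2 rose after TAC in G4D and 3 in wild type. Of 10 ventricular cardiomyocyte markers 2 fell in G4D and 0 were called in wild type. Of 3 lymphocyte and 3 erythroid markers 1 each fell in G4D and 0 were called in wild type. Of 5 atrial markers 1 rose and 1 fell in G4D, and 1 rose in wild type. In G4D TAC the fibroblast list mean ranged between 9.60 and 10.30, against 8.81 to 9.50 in G4D sham, and in wild-type TAC between 9.37 and 10.13, against 8.91 to 9.01 in wild-type sham. The macrophage list mean ranged between 7.63 and 8.26 in G4D TAC, against 7.01 to 7.35 in G4D sham, and between 7.59 and 8.50 in wild-type TAC, against 7.25 to 7.37 in wild-type sham. The actin 3′-to-5′ difference, a sign of RNA quality, was 0.255 ± 0.081 in G4D TAC, 0.461 ± 0.099 in G4D sham, 0.319 ± 0.106 in wild-type TAC and 0.517 ± 0.102 in wild-type sham (SD; n = 6, 5, 6 and 4). The TAC and sham groups did not overlap on it in either genotype, and both TAC groups overlapped each other. The Gapdh 3′-to-5′ difference averaged -0.182 ± 0.104 in G4D TAC, -0.331 ± 0.073 in G4D sham, -0.214 ± 0.084 in wild-type TAC and -0.172 ± 0.194 in wild-type sham (SD). It overlapped between TAC and sham in both genotypes, and in G4D its mean was higher after TAC, where that of actin was lower. The part of these measures in the TAC responses was not tested. In bulk samples a change in the number of cells of a type and a change in RNA per cell cannot be told apart.

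The 6 tested genes whose levels followed Uck2 most closely over the 21 arrays were Hbegf (r = 0.948), Ckap4 (0.943), Pmepa1 (0.942), Tubb2a (0.939), Rnf115 (0.931) and Loxl1 (0.931). For deviations from the group means the correlations were 0.679, 0.672, 0.73, 0.692, 0.599 and 0.528 in that order. Hbegf encodes a growth factor of the EGF family, Pmepa1 a TGF-beta-induced inhibitor of that pathway, Tubb2a a tubulin, Ckap4 a membrane protein of the endoplasmic reticulum, Rnf115 a ubiquitin ligase and Loxl1 an enzyme that cross-links elastin. Their group means had the order of Uck2's, lowest in G4D sham and highest in G4D TAC, with Tubb2a at 9.02 in G4D TAC, 7.40 in G4D sham, 8.19 in wild-type TAC and 7.59 in wild-type sham. Being chosen for likeness to Uck2, they carry its pattern by choice. Among the 8 genes, Upp1 correlated with Uck2 at r = 0.75 and Dck at 0.712, with 0.243 and 0.338 for deviations from the group means, and Dhodh at -0.59. The arrays share groups and normalization, so these are descriptions with no p.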

How the data were processed

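The deposited log2 values, 1 for each probe set on an array, were summarised from probe intensities with PLIER by the authors, per the submitters' processing notes. The version of PLIER, background correction and normalization are not given in the sources used here. The log2 scale was read from the values, which ran from -13.5 to 15.1. Since array medians differed, the values of 45037 probe sets (64 controls left out) were quantile normalized between the 21 arrays, which sets every array to 1 distribution and so hides any shift shared by most genes. Of these, 34945 carried 1 gene symbol in the platform annotation, 932 several and 9160 none, and names come only from the first kind. Probe sets were tested if their mean level reached the 40th percentile of all means, 4.35, and each gene was represented by its brightest one. limma 3.58.1 in R 4.3.3 fitted the 4 group means to 13279 genes without covariates, with 17 residual degrees of freedom, or 20.7 once moderated, and two-sided p-values were Benjamini-Hochberg adjusted over all genes of a comparison. A second fit of all 45037 probe sets gave the values of single probe sets. The fit was tested on simulated data.

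The 8 genes and the gene lists were chosen with earlier results of these data known. Listed genes were named by a rule: per list and comparison up to 4 called genes with the largest change, or up to 2 as values where none was called, and the 6 genes most like Uck2. Groups came from the sample titles. Alternatives tried were the values as deposited, median centring, a filter set at the 60th percentile, no filter, the mean of a gene's probe sets, only the 2 groups compared, the replicate number as a block, and each array left out in turn. No 2 arrays held identical values. Promoter windows were taken from RefSeq (build GRCm38.p6).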

Additional observations from a re-analysis of the deposited data

Results flagged for a closer look

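The difference between the TAC responses of the genotypes was 1.853 on the log2 scale for Uck2, 2.46 in G4D and 0.61 in wild type, and it was past the threshold in the fit of all genes. The contrast was among those used to choose Uck2, and the call ended without any 1 of 14 of the 21 arrays.

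In 5 of 84 combinations of a probe set and a group, 1 sample lay farther from the rest than Dixon's 95% critical value allows, where chance gives about 1 in 20. Dhodh on 1417581_at was 5.72 in wild-type TAC sample 1, with the next at 4.895 and the lowest at 4.777. The same sample had the highest Umps level on 1434859_at, 5.93, with the next at 5.634. Uckl1 was 7.836 in G4D TAC sample 4, with the next at 7.549. Uck1 was 6.331 in wild-type sham sample 4, with the next lowest at 6.82. Dck on 1439012_a_at, below the filter level, was 4.059 in wild-type sham sample 3, with the next at 3.788.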

How the results depend on the processing

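The Uck2 differences for TAC in G4D and for G4D over wild type after TAC stayed called under all 7 alternatives that kept the arrays. Both contrasts were used in choosing Uck2, so nothing is read from these calls. The differences themselves, 2.463 and 1.109, could not change with no filter, at the 60th percentile or with only the 2 groups compared. Averaging the Uck2 probe sets gave 2.006 for TAC in G4D and 1.432 for the difference between the TAC responses, which was 2.261 in the values as deposited. That last call ended with no filter, with the mean of probe sets and with the replicate block. Genes called in sham, 7 in all, became 3 in the values as deposited (0% higher, against 57.1%), 4 with median centring (25% higher), 15 with the filter at the 60th percentile and 3 with the replicate block. For TAC in wild type, 976 became 95 as deposited (94.7% higher, against 70.6%), 388 with median centring (93.8%) and 488 with the block. For G4D over wild type after TAC, 446 became 64 as deposited (87.5% higher, against 62.6%), 185 with median centring (82.7%) and 274 with the block. For TAC in G4D the share of higher calls was 97.8% as deposited and 88.8% with median centring, against 58.6%. For the difference between the TAC responses, 2 became 6 as deposited, 10 with median centring, 1 with no filter, 20 at the 60th percentile, 0 with the mean of probe sets and 1 with the block. As deposited, the median of all genes moved to -0.28 between the sham groups, 0.14 between the TAC groups, 0.31 for TAC in G4D and 0.42 for the difference between the responses, and relative to it Uck2 stood at -0.71, 1.13, 2.501 and 1.84. Of the further pyrimidine genes, 5 called for TAC in wild type became 2 as deposited, 3 at the 60th percentile and 3 with the block. Nme7, Mthfd2 and Tk1 did not pass the filter at the 60th percentile and were not tested there. The 2 lower in G4D after TAC became 0 as deposited, 1 with median centring, 1 with no filter, 0 with only the 2 groups compared and 0 with the block. Among 65 calls of listed genes, 22 ended as deposited with the same direction and 2 reversed, Cds2 to 0.18 and Adk to 0.073 for TAC in G4D; 14 ended with median centring, 7 with no filter, 12 with only the 2 groups, 20 with the block and 3 with the mean of probe sets. At the 60th percentile 53 of the 65 calls were still tested, and all 53 were kept. These alternatives for listed genes were chosen after seeing the data. Apart from genes that the filter removed, the cause of these moves was not tested.

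Leaving out 1 array at a time, genes called ranged from 1 to 27 between the sham groups, 248 to 647 between the TAC groups, 2424 to 3356 for TAC in G4D, 559 to 922 for TAC in wild type and 1 to 29 for the difference between the responses. Further pyrimidine genes called ranged from 0 to 0, 1 to 2, 9 to 11, 3 to 6 and 0 to 0 in that order. Uck2 ranged from -0.837 to -0.678 between the sham groups, 0.981 to 1.259 between the TAC groups, 2.401 to 2.557 for TAC in G4D, 0.46 to 0.738 for TAC in wild type and 1.724 to 2.003 for the difference between the responses. The lowest counts came without wild-type sham sample 1 in sham and in wild type, without G4D TAC sample 6 for TAC in G4D and without G4D TAC sample 1 after TAC.

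Groups share replicate numbers, but same-numbered samples did not deviate together: their correlations ran from -0.359 to 0.423, 9 of 28 were above 0.1, and in 3 of 29 cases did an array match best with its own number, so the block above pairs samples by number alone. With the block, Uck2 was -0.79 between the sham groups, 1.11 between the TAC groups, 2.39 for TAC in G4D, 0.49 for TAC in wild type and 1.90 for the difference between the responses. Of 233 values of the other 7 genes under alternatives, 213 stayed within 1 SD. Many of these could not move, so the count is no measure of stability. With no filter, at the 60th percentile or with only the 2 groups compared, a gene kept its probe set and thus its value. The mean of probe sets likewise changed nothing for a gene with 1 probe set above the filter. Dck gave no value at the 60th percentile filter. Small differences at low levels, as for Dck and the dimmest Uck2 probe set, are limited by signal over background.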
